A study of Morella rubra with 12 samples.

Results

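A set of 33 genes of the Chinese bayberry fruit, among 119701 assembled genes, was very abundant in every group sampled and differed between groups by less than 2-fold. The members were chosen on FPKM as deposited (fragments counted on a gene, scaled by the gene's length and by the size of the library). The mean of the 3 libraries had to be at least 500 FPKM in each of 4 groups, and the highest group mean less than 2 times the lowest. Chinese bayberry (Morella rubra) is an evergreen tree with juicy stone fruits. BDK (Baidongkui) is a strain with pink-white fruits, whose colour is given as pink, and its fruits were taken 55 (BDK1), 70 (BDK2) and 85 days (BDK3) after flowering. DK (Dongkui) is a cultivar with red fruits, whose colour is given as black, and its fruits were taken ripe, at 85 days (DK3). Each group holds 3 libraries, numbered replicates 1 to 3. Nothing in the labels ties the replicates to separate trees, so p-values here reflect only how far these libraries scatter, and part of that scatter may be technical. In whole tissue, fewer cells of a type and less RNA per cell cannot be told apart.

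A ripening fruit softens, gains sugar and colour and loses acid, and much of its mRNA is replaced on the way. Transcripts that stay plentiful throughout growth commonly encode parts of the translation machinery, the cytoskeleton, protein turnover and central metabolism. Genes with such even levels are also those sought as references when single transcripts are measured by quantitative PCR. The files give gene IDs of a transcript assembly and do not pair them with names, so what the 33 genes encode was not analysed here, and they are described by ID, level and course.

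The rule used the means of all 4 groups, so the members' levels and their differences between groups are given as a description with no test. All 33 passed the filter used for tests (at least 1 FPKM in at least 3 libraries), which left 23074 genes. The summed FPKM of a library ran from 817744 to 1219278 and was highest at 55 days, so a gene's constancy depends on whether libraries are rescaled, as given below. The files hold no read counts, so total depth is unknown. The libraries' depth relative to each other, estimated from the spacing of low FPKM values, was 0.870 to 1.19. A further split, not named by any label, separated the BDK1 libraries, BDK2 replicate 1 and BDK3 replicates 1 and 2 (the first set) from the other 6. In all, 876 genes were above 0 in each library of the first set and at 0 in each of the other 6.

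Fewer than 1 in 2 of the genes abundant in all groups kept within the 2-fold limit. A mean of at least 500 FPKM was reached by 160 genes at BDK1, 195 at BDK2, 210 at BDK3 and 215 at DK3, and by 75 genes in all 4 groups. The 33 members are 44.0% of those 75, and the other 42 differed between groups by 2-fold or more. Grouped by mean level over the 12 libraries, 27.6% of the 9352 genes from 1 to 10 FPKM and 57.8% of the 8416 genes from 10 to 100 FPKM differed by less than 2-fold between groups. That share was 48.5% of 1232 genes from 100 to 500 FPKM, 29.1% of 103 genes from 500 to 1000 and 20.7% of 87 genes of 1000 FPKM or more. These shares are of FPKM as deposited. A gene high in 1 group only can enter a high band through that group, which lowers the share there. The youngest fruit set the tightest condition: with BDK1 left out of the rule 84 genes qualified, against 49 without BDK2, 36 without BDK3 and 37 without DK3.

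**Figure D1:**
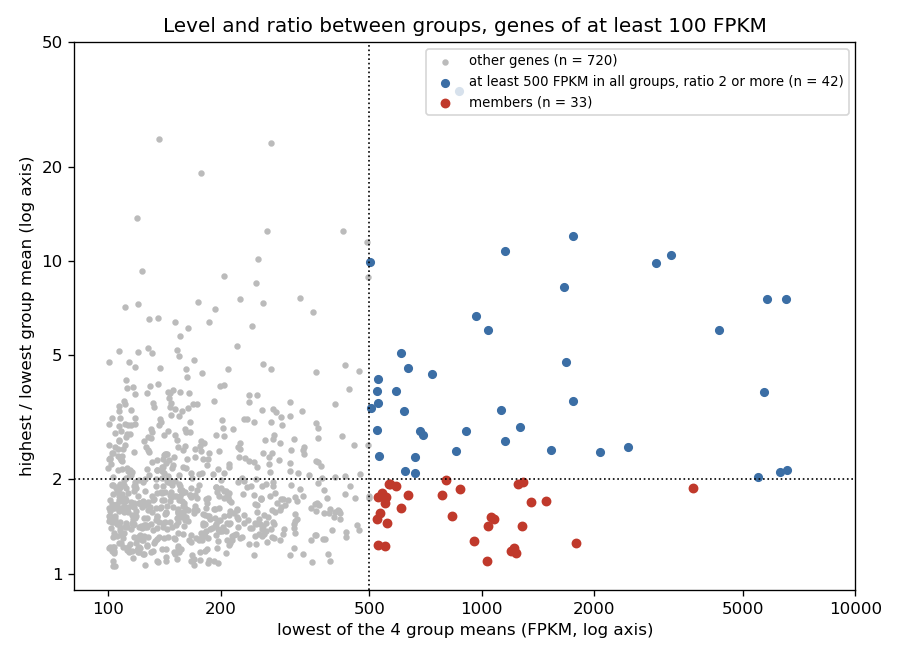
Each point is a gene with at least 100 FPKM in all 4 groups, placed by its lowest group mean (FPKM, log axis) and by the ratio of its highest to its lowest group mean (log axis); dotted lines mark 500 FPKM and a ratio of 2. The 33 members (red) fill the lower right, and the 42 other genes above the same minimum, which vary by 2-fold or more (blue), lie above them.

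Averaged over the 4 group means, the members ran from 569.8 FPKM (c51613_g1) to 5125 FPKM (c54944_g1), and 18 of the 33 were at 1000 FPKM or more. Of their 396 values in single libraries, 386 were at least 500 FPKM, and 27 members were at that level in every library. The ratio of highest to lowest group mean was below 1.25 in 6 members, from 1.25 to 1.5 in 7, from 1.5 to 1.75 in 7 and above 1.75 in 13. In 18 members even the single highest and lowest of the 12 libraries lay within 2-fold.

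The most abundant member, c54944_g1, was also the most variable between replicates. It stood at 1747, 4508 and 4758 FPKM in the 3 BDK1 libraries, at 4088, 3658 and 3502 in BDK2, at 4439, 11101 and 5091 in BDK3 and at 4141, 4518 and 9948 in DK3. One library stood far from the others in 3 of the groups, low in BDK1 replicate 1 and high in BDK3 replicate 2 and DK3 replicate 3. Its coefficient of variation within groups (CV, the SD as a percent of the mean; root mean square over the 4 groups) was 44.0%, and of its variance in log2 level only 35.2% lay between groups. Removal of any 1 of 4 libraries (BDK1 replicates 2 and 3, BDK3 replicates 1 and 3) took it out of the set. Among all genes of a library its median rank was 22 in BDK1, 20 in BDK2 and 12 in both BDK3 and DK3.

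The next in level, c51468_g1, was the least variable between replicates, with a CV of 3.56%. It was at 1736, 1778 and 1848 FPKM in BDK1, 2295, 2267 and 2156 in BDK2, 1822, 1809 and 1844 in BDK3 and 2223, 2012 and 2048 in DK3. Its BDK2 libraries lay above all those of BDK1 and BDK3, and BDK1 and BDK3 overlapped. Under each of the 4 other scalings its highest group was DK3. In contrast c52680_g2 was loosely set in young fruit, at 1093, 1928 and 739 FPKM in BDK1, and tighter later, at 2381, 1963 and 1774 in BDK2, 2148, 1667 and 2159 in BDK3 and 2263, 2405 and 2628 in DK3. Only its DK3 libraries stood clear of those of BDK1 and BDK3.

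The other members named for their level peaked differently. Gene c51328_g1 was at 1387, 1293 and 1765 FPKM in BDK1, 2419.9, 2443 and 2739.6 in BDK2, 1258, 2055 and 1516 in BDK3 and 1879, 1688 and 1972 in DK3, with BDK2 above every other library. Gene c51953_g1 was lowest in young fruit, at 1341, 1278 and 1431 FPKM, then at 1629, 1727 and 1945 in BDK2, at 2308, 1413 and 2364 in BDK3 and at 2244, 2374 and 2215 in DK3. One BDK3 library, replicate 2, lay within the BDK1 range. Gene c47264_g1 was at 2473, 2029 and 3064 FPKM in BDK2, above the 1433, 1313 and 1620.5 of BDK1, the 1158, 1059.9 and 1762 of BDK3 and the 1415, 1205 and 1250.0 of DK3.

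**Figure D2:**
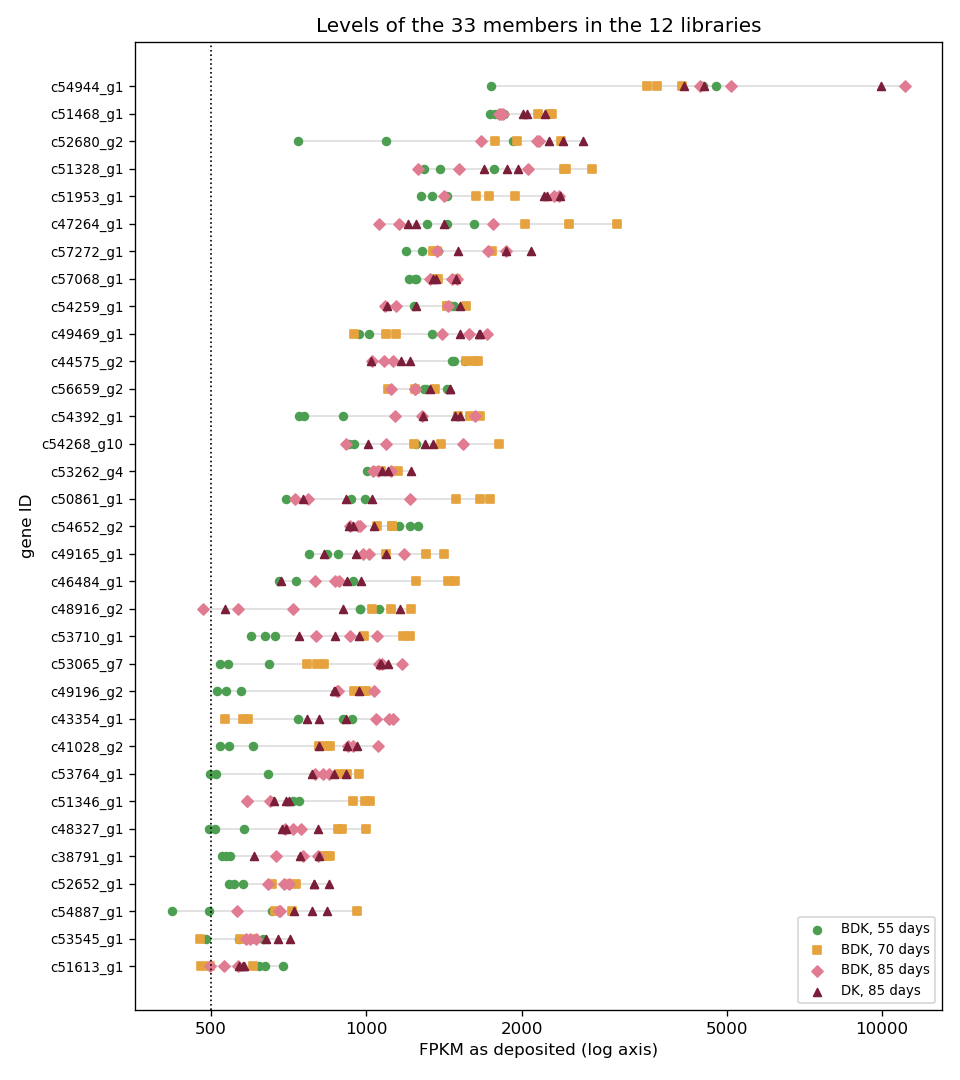
Each row is a member, ordered by mean level, and each point 1 library, placed by FPKM as deposited on a log axis and coloured by group; the dotted line marks 500 FPKM. Most rows are narrow and have the BDK libraries of 55 days on the left, while c54944_g1 at the top spans 1747 to 11101 FPKM.

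The steadiest member as deposited was c53262_g4, whose group means differed 1.09-fold. It was at 1064, 1005 and 1035 FPKM in BDK1, 1153, 1067 and 1059 in BDK2, 1029, 1116 and 1054 in BDK3 and 1103, 1220.3 and 1074 in DK3. Each group overlapped at least 1 other, and the group means of 1035 ± 29.3, 1093 ± 52.2, 1066 ± 44.8 and 1133 ± 77.3 (SD, n = 3) each differed from the next in order of level by less than the larger of the SDs of that pair. Gene c57068_g1 had a ratio of 1.16, with 1242, 1209 and 1247 FPKM in BDK1 and 1328 to 1499 in the 9 later libraries, so that its young fruit lay just below all others. Gene c56659_g2 (ratio 1.18) was at 1344 ± 77.8, 1235 ± 130.0, 1199 ± 73.4 and 1412 ± 73.5 FPKM in BDK1, BDK2, BDK3 and DK3, and c54259_g1 (ratio 1.21) at 1393 ± 133, 1476 ± 73.7, 1223 ± 192 and 1289 ± 216. In c54259_g1 every pair of groups overlapped, and in c56659_g2 BDK3 lay below BDK1 and DK3 without overlap.

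Some members had stages that stood clearly apart. The share of the variance in log2 level that lay between groups ran over 50% in 29 of the 33, with a median of 76.7%, which includes members whose groups overlap. It is a share of the sum of squares, and with 3 libraries per group replicate scatter alone puts part of it between groups. The share was highest in c53065_g7, at 95.8%, whose course was a staircase from 538, 521 and 648 FPKM in BDK1 through 768, 803 and 828 in BDK2 to 1059, 1071 and 1175 in BDK3, with 1100.0, 1068 and 1063 in DK3. A gene can therefore be within the 2-fold limit as deposited and still have stages that do not overlap. Under the 4 other scalings c53065_g7 was outside the limit, at ratios between 2.27 and 2.51. Gene c44575_g2 met the rule under all 4, and its BDK2 libraries lay above those of BDK3 as deposited.

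The shared course was low in young fruit. The lowest group mean was BDK1 for 22 of the 33 members, BDK3 for 6, BDK2 for 4 and DK3 for 1. The highest was BDK2 for 17, DK3 for 9, BDK3 for 5 and BDK1 for 2. Under 4 other scalings BDK1 was lowest for 26 to 28 members. The commonest highest group changed with scaling: it was DK3 for 12 to 14 members and BDK2 for 11 to 15, with DK3 ahead under all but upper-quartile factors. Among the 42 abundant genes outside the limit, BDK1 was highest for 16 and lowest for 15.

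A set of 12 members was lowest at 55 days and highest at 70 days as deposited. All 12 stayed lowest at 55 days under the 4 other scalings, but only 7 stayed highest at 70 days under every one of them (c51328_g1, c54268_g10, c50861_g1, c49165_g1, c46484_g1, c53710_g1 and c48327_g1). The widest as deposited was c54392_g1, at 742, 757 and 901 FPKM in BDK1, 1509.6, 1664 and 1587 in BDK2, 1282, 1626 and 1136 in BDK3 and 1286, 1486 and 1522 in DK3. All later libraries were above all BDK1 libraries, and its highest group was DK3 under 3 of the 4 other scalings. Gene c50861_g1 was high at 70 days alone, at 1739, 1494 and 1661 FPKM, against 936, 993 and 699 in BDK1, 1215, 728 and 769.9 in BDK3 and 914, 1027 and 754 in DK3. Gene c46484_g1 had the same form, with means of 783 ± 140.4, 1393 ± 125, 850.3 ± 48.2 and 859 ± 156 FPKM over BDK1, BDK2, BDK3 and DK3 (SD, n = 3). By contrast c49196_g2 stayed up after 70 days, at 540.1 ± 29.4, 978 ± 27.4, 931 ± 89.0 and 901 ± 58.3 FPKM. So did c53764_g1, at 551 ± 81.7, 924 ± 43.3, 823 ± 25.5 and 855 ± 65.5. Under each of the 4 other scalings the highest group was BDK3 for c49196_g2 and DK3 for c53764_g1.

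A second form had its highest mean at 85 days and its lowest at 55 days, in 4 members with the top in BDK3 and 6 with the top in DK3. Besides c53065_g7 it held c41028_g2, at 519, 541 and 603 FPKM in BDK1, 811, 836 and 849 in BDK2, 923, 942 and 1056 in BDK3 and 961, 811 and 917 in DK3. Its BDK stages did not overlap, and DK3 overlapped both BDK2 and BDK3. Gene c52652_g1 was at 558 ± 17.4, 696 ± 37.3, 682 ± 33.1 and 811 ± 31.5 FPKM over BDK1, BDK2, BDK3 and DK3, and c57272_g1 at 1285 ± 91.1, 1488 ± 228, 1652 ± 254 and 1819 ± 289.7 (SD, n = 3). The first stood apart in DK3, and in the second the later groups overlapped.

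The remaining forms differed from the majority in that their lowest group mean as deposited was not BDK1. In c44575_g2 the young stages were high, at 1466, 1480.1 and 1556 FPKM in BDK1 and 1561, 1627 and 1650.0 in BDK2, and the 85-day groups low, at 1081, 1028 and 1125 in BDK3 and 1168, 1215 and 1021 in DK3. Gene c54652_g2 stepped down from 1214, 1159 and 1258 FPKM in BDK1 through 1119.6, 1051 and 1124 in BDK2 to 929.5, 971 and 962 in BDK3 and 1035, 941 and 926 in DK3. Its differences depended on scaling: the ratio of highest to lowest group mean was 1.27 as deposited and from 1.04 to 1.08 under the 4 other scalings, the lowest ratio of any member under each of them. Gene c43354_g1 dipped at 70 days, at 899.5, 739 and 938 FPKM in BDK1, 576, 532 and 589.8 in BDK2, 1044, 1127 and 1107 in BDK3 and 809, 914 and 768 in DK3. Its 3 BDK stages did not overlap, and DK3 lay below BDK3 and within the range of BDK1.

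**Figure D3:**
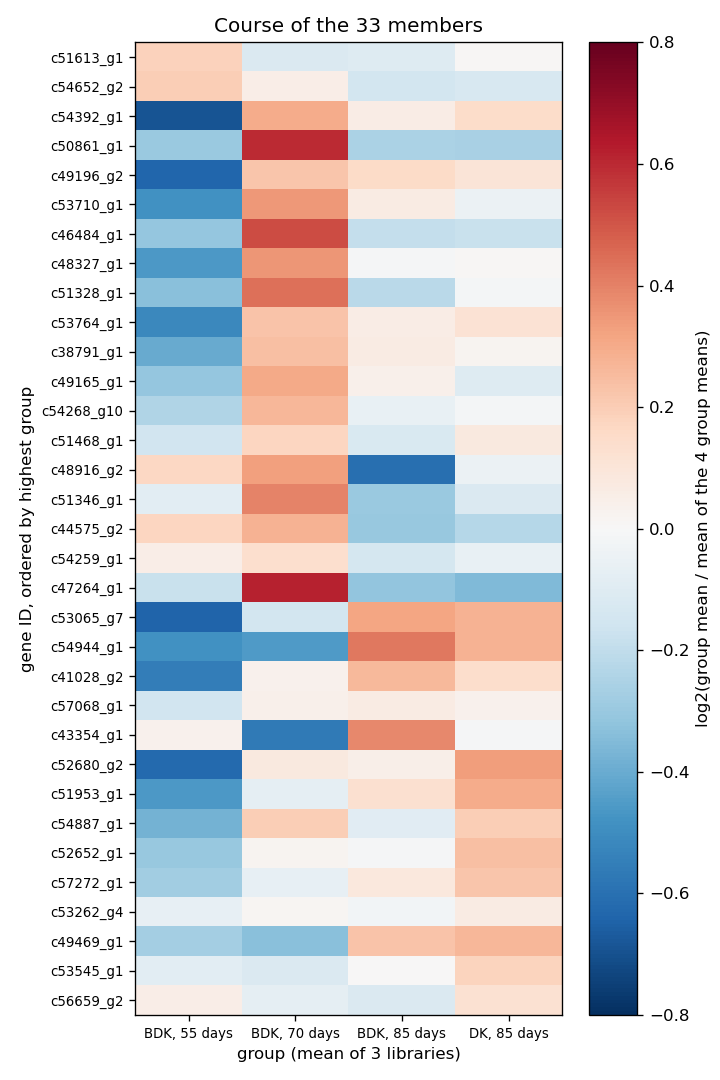
Colour shows the log2 ratio of each group mean to the mean of the 4 group means for each of the 33 members (rows, ordered by highest group; columns, groups of 3 libraries). As deposited, 22 members are lowest at 55 days and 12 of these highest at 70 days, of which 7 keep that form under 4 other scalings.

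The rule used the contrasts between groups, so the numbers of members past a test's threshold are given beside those of all genes and nothing is read from them. For each comparison limma was fitted to log2(FPKM / trimmed-mean factor + 1) over the 23074 genes, with 4 groups in 1 model and Benjamini-Hochberg adjustment. At an adjusted p below 0.05, BDK2 against BDK1 called 20 of the 33 members (51% of all genes), 19 higher (23%) and 1 lower (28.1%). BDK3 against BDK2 called 11 (36.8%), 5 higher (17.4%) and 6 lower (19.5%). BDK3 against BDK1 called 20 (56.1%), 20 higher (24.9%) and 0 lower (31.2%). With no factors it called 14 members higher and 5 lower, and of the 23074 genes 4347 higher and 8674 lower. DK3 against BDK3 called 0 of the 33 by limma (6.58% of all genes, 3.53% higher and 3.05% lower). In the same limma fit 2 members had an unadjusted p below 0.05, and 5236 of the 23074 genes did. The groups did not overlap on deposited FPKM for 23 members in BDK2 against BDK1 (59.2% of all genes), 20 higher (24.8%) and 3 lower (34.4%). They did not overlap for 17 in BDK3 against BDK2 (48.2%), 5 higher (15%) and 12 lower (33.2%). For BDK3 against BDK1 it was 19 (60.3%), 13 higher (20.2%) and 6 lower (40.1%), and for DK3 against BDK3 9 (24.2%). With no filter on low values BDK3 against BDK2 called 5 members (6455 of 101724 genes). It called 7 without BDK2 replicate 1 (7448 of 22276), 7 without BDK3 replicate 1 (7740 of 22440) and 6 without BDK3 replicate 3 (7573 of 22598).

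From 55 to 70 days the mean was higher in 27 of the 33 members, with a median ratio of 1.39 and a range from 0.659 to 1.98. Over all genes tested and above 0 in each group the median ratio was 0.902. Log2 differences here and below come from the limma fit with trimmed-mean factors unless another setting is given. On that scale a member can pass the 2-fold limit, which was set on FPKM as deposited. The widest differences with no overlap were in genes given above. On the log2 scale BDK2 minus BDK1 was 1.04 ± 0.15 in c54392_g1, 0.96 ± 0.21 in c50861_g1 and -0.54 ± 0.11 in c43354_g1 (SE). It was -0.26 ± 0.10 in c51613_g1 (-0.15 with upper-quartile factors), at 619, 636 and 689.9 FPKM in BDK1 against 498, 478 and 603 in BDK2. From 70 to 85 days in BDK 10 of 33 had the higher mean at 85, at a median ratio of 0.887, where all genes were at 0.849. With trimmed-mean factors 17 of the 33 log2 differences were above 0, so no common direction of this step was stable to scaling.

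In that step BDK3 minus BDK2 was 1.13 ± 0.11 on the log2 scale in c43354_g1 and 0.93 ± 0.49 in c54944_g1 (0.55 without BDK3 replicate 2), and -0.76 ± 0.22 in c47264_g1 (SE). In c48916_g2 it was -0.76 ± 0.25, from 1219.6, 1117 and 1025 FPKM in BDK2 to 483, 722 and 563 in BDK3. That gene was scattered in ripe red fruit, at 1163, 533 and 900.0 FPKM in DK3, and stood at 971, 974 and 1059 in BDK1. Over the whole interval, BDK3 minus BDK1 was 1.19 ± 0.11 in c53065_g7 and 1.04 ± 0.11 in c41028_g2, and -0.55 ± 0.25 in c48916_g2 and -0.25 ± 0.10 in c44575_g2 (-0.48 with no factors). As deposited, the BDK3 mean was 1.94 times that of BDK1 in c53065_g7 and 1.76 times in c41028_g2. Over this interval the median log2 difference of all genes was -0.09 with trimmed-mean factors and -0.26 with none. The median of the 33 members was 0.52 and 0.29.

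At 85 days the members' levels in DK and BDK fruits differed by less than 2-fold, as the rule requires. The ratio of DK3 to BDK3 means ran from 0.760 to 1.47 with a median of 1.04, where all genes had a median of 1.01, and DK3 was higher in 22 of 33. Without overlap DK3 was higher in 8 members (12.2% of all genes) and lower in 1 (12%), c43354_g1, with a log2 difference of -0.41 ± 0.11. The largest with no overlap upward were c52680_g2, at 0.28 ± 0.29 (0.13 without BDK3 replicate 2), and c54887_g1, at 0.28 ± 0.19. The latter was at 839, 723 and 786 FPKM in DK3 and 681, 678 and 561 in BDK3, with 496, 420.0 and 655 in BDK1 and 666, 718 and 959.5 in BDK2. The comparisons of DK3 with BDK3 and of BDK3 with the younger stages share the BDK3 libraries.

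Membership itself depended on how libraries were put on 1 scale. With the 4 other scalings the rule gave 25 genes (trimmed-mean factors, 23 shared with the 33), 24 (a common sum of 1000000 FPKM, 21 shared), 20 (upper-quartile factors, 18 shared) and 20 (median-of-ratios factors, 19 shared). A total of 17 members met the rule under all of them, c53262_g4, c57068_g1, c56659_g2, c54259_g1, c51468_g1 and c54652_g2 among them. Others crossed the limit of 2: c53065_g7 went from a ratio of 1.94 as deposited to between 2.27 and 2.51, and c54944_g1 from 1.87 to between 2.18 and 2.47. Gene c48916_g2 moved the other way, from 1.90 to between 1.58 and 1.73.

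**Figure D4:**
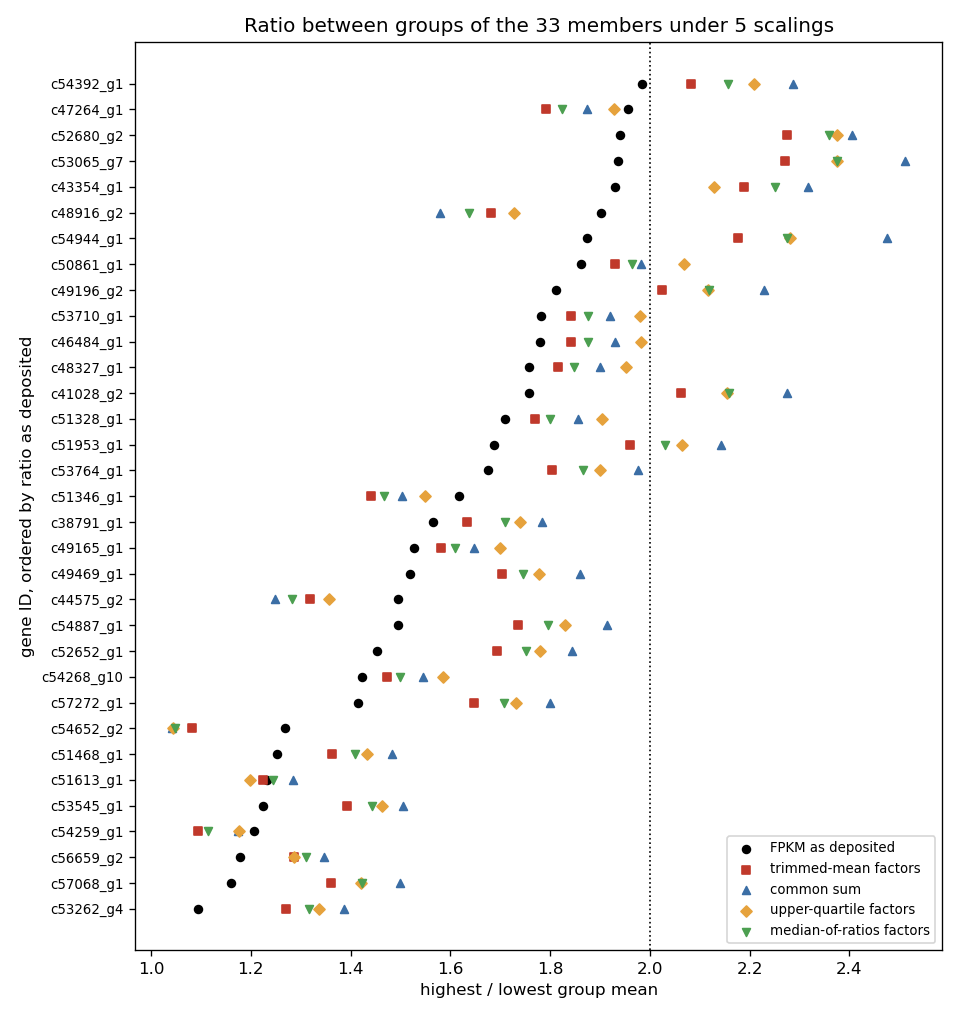
For each member (rows, ordered by ratio as deposited) the points give the ratio of highest to lowest group mean under 5 scalings; the dotted line marks the limit of 2. Between 24 and 26 of the 33 stay below 2 under each of the 4 other scalings, and c54652_g2 moves to between 1.04 and 1.08.

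Near the limits small differences decided membership. Just inside the ratio lay c54392_g1 at 1.98, c47264_g1 at 1.96 and c52680_g2 at 1.94, and just outside it c42705_g1 at 2.04, c49031_g2 at 2.10 and c49885_g1 at 2.11. Gene c42705_g1 had a higher mean than any member in BDK1 and BDK2, and in BDK3 and DK3 only c54944_g1 was above it, at 11184 ± 1517, 8948 ± 2299, 6055 ± 1917 and 5475 ± 303 FPKM over BDK1, BDK2, BDK3 and DK3 (SD, n = 3). It met the rule under all 4 other scalings. The lowest minimum group means inside were 523.6 FPKM (c54887_g1), 526 (c51613_g1) and 528 (c48327_g1). Outside were c2839_g1 at 499.8, c50183_g1 at 498 and c56149_g2 at 470.1.

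Replicate spread was measured apart from the differences between group means, although a low spread also makes it easier to stay within the limit. The median CV over the members was 7.80% in BDK1, 7.04% in BDK2, 9.29% in BDK3 and 7.82% in DK3. One library carried much of the BDK1 value, which was 3.28% over the 2 libraries left without BDK1 replicate 3. That replicate was the highest of its group for 26 of the 33 members as deposited and for 27 with trimmed-mean factors. Scaled to a common sum it was highest for 8 and lowest for 20. The 42 abundant genes that varied by 2-fold or more had medians of 12.2%, 13.6%, 18.1% and 11.1% in the same order. The 1091 genes of 50 to 500 FPKM within 2-fold had 6.25%, 6.13%, 7.44% and 6.25%. Scaled to a common sum, the members' median in BDK1 was 6.37% and that of the 1091 genes 8.02%, so the order of these 2 sets turned with scaling. No test of these differences was made. After c51468_g1 the lowest CVs over the 4 groups were 4.28% in c54652_g2 and 4.39% in c52652_g1, and below c54944_g1 the highest were 26.8% in c52680_g2 and 21.6% in c48916_g2.

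The library split gave a contrast that the rule did not use, since it divides the replicates of BDK2 and of BDK3. With the split as a term beside the 4 groups, limma called 0 of the 33 members at an adjusted p below 0.05, and 0 had an unadjusted p below 0.05. Over all genes 239 were called (1.04%, with 0.953% higher and 0.0823% lower in the first set) and 1319 had an unadjusted p below 0.05. The split was itself drawn from genes above 0 in the first set and at 0 in all other libraries. Such genes were not removed before the test, so those that passed the filter can be called by construction. Every member was above 0 in all libraries, so 1.04% is not an independent background rate for the members. A list of 33 would hold few calls even at that rate, so nothing is read from the lack of calls. The lowest differences, first set minus second on the log2 scale, were -0.42 ± 0.22 in c54268_g10 (limma adjusted p = 0.94, from 0.68 to 1.0 over 21 other settings) and -0.39 ± 0.21 in c47264_g1 (limma adjusted p = 0.94, from 0.39 to 1.0). The highest were 0.28 ± 0.54 in c54944_g1 and 0.16 ± 0.23 in c50861_g1, each with a limma adjusted p of 1.0 and each of the opposite sign in some settings. With 1 library left out the difference ran from -0.66 (without BDK2 replicate 1) to -0.17 (without BDK3 replicate 3) in c54268_g10, and it was -0.13 with a replicate block. In c47264_g1 it ran from -0.70 to -0.085 on leaving out the same libraries. In c54944_g1 it was -0.013 without BDK3 replicate 2, 0.52 without BDK3 replicate 1 and 1.30 with a replicate block. Gene c54268_g10 was at 1397 FPKM in BDK2 replicate 1 against 1237 and 1808 in the other two, and at 912 and 1093 in BDK3 replicates 1 and 2 against 1544 in replicate 3. It was at 926, 945 and 1249.7 in BDK1 and 1300.1, 1009 and 1347 in DK3.

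The members held a smaller part of the summed FPKM at 55 days than later. The 33 genes held 2.94%, 3.34% and 3.02% of the summed FPKM in the BDK1 libraries, 4.45%, 4.11% and 4.44% in BDK2, 4.44%, 5.60% and 4.82% in BDK3 and 4.55%, 4.90% and 5.59% in DK3. The mean share was 3.10% ± 0.21 in BDK1, 4.33% ± 0.20 in BDK2, 4.95% ± 0.59 in BDK3 and 5.02% ± 0.53 in DK3 (SD, n = 3). BDK1 lay below all other libraries, and BDK3 and DK3 overlapped. Without c54944_g1 the shares were 2.77% ± 0.14, 3.97% ± 0.19, 4.13% ± 0.17 and 4.29% ± 0.17. The 42 abundant genes outside the limit, taken as a sum, went the other way. They held 28.7% ± 1.27 in BDK1 and 25.3% ± 2.13 in BDK2, then 15.4% ± 1.51 in BDK3 and 14.4% ± 0.18 in DK3. A few very high genes weigh on that sum, such as c116193_g1 (49418 FPKM in BDK1, 7205 in BDK3), c35045_g1 (43681 and 5795) and c46731_g1 (33536 and 3201). Counted by gene the 42 had no common course, with BDK1 highest for 16 and lowest for 15.

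**Figure D5:**
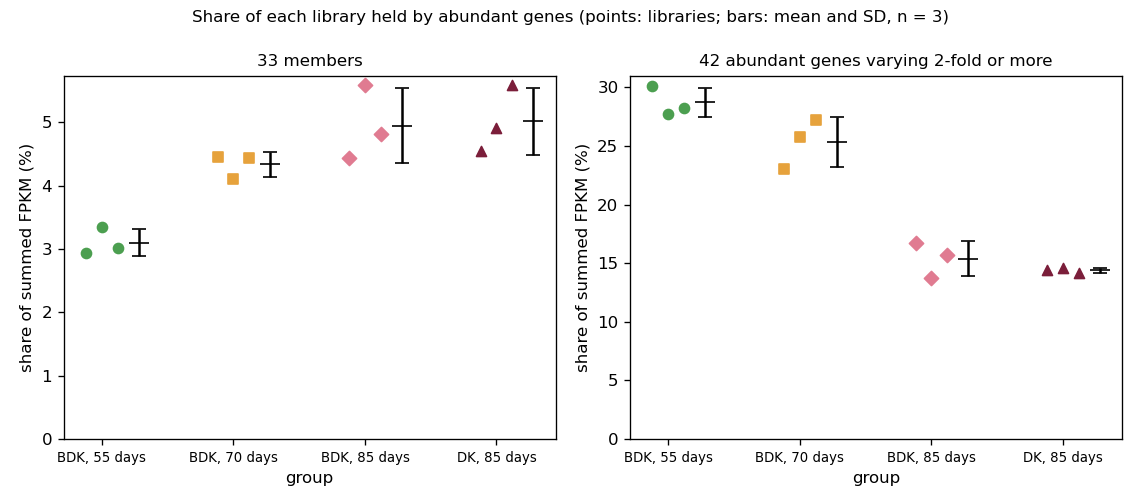
Points are libraries and the bars beside them the mean and SD of a group (n = 3); the y axes, which start at 0 and differ in scale, give the percent of a library's summed FPKM held by the 33 members (left) and by the 42 abundant genes varying 2-fold or more (right). The members held 2.94% to 3.34% at 55 days and 4.11% to 5.60% later, and the other genes 27.8% to 30.2% at 55 days and 13.8% to 16.7% in BDK fruit of 85 days.

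Some members had sister genes, which carry the same assembly cluster number (the ID up to its last part) and can share reads, so their separate levels are uncertain. No 2 members came from 1 cluster. In all 18 of the 33 (54.5%) had at least 1 sister, against 47.6% of the 42 abundant variable genes, 56.3% of the 1091 genes of 50 to 500 FPKM within 2-fold and 45.8% of all genes tested. The highest sister was under 10 FPKM for 11 of them and above 100 FPKM for 7. In 5 of these 7 the sister had its highest mean in the same group as the member. Gene c51468_g2 stood at 15.9% ± 0.47 of c51468_g1 in BDK1, 16.3% ± 0.81 in BDK2, 13.9% ± 0.62 in BDK3 and 13.5% ± 0.48 in DK3, and c44575_g1 at 9.65% ± 0.67, 10.5% ± 0.15, 8.48% ± 0.68 and 8.85% ± 0.59 of c44575_g2 (SD, n = 3).

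The balance of a pair is a ratio within a library that no scaling alters, and it differed with stage in c51468, c44575 and other pairs. For c51468_g2 every BDK1 and BDK2 library, at 15.3% or more, lay above every BDK3 and DK3 library, at 14.6% or less. For c44575_g1 the BDK2 libraries, at 10.4% to 10.7%, lay above those of all other groups, at 10.3% or less. Gene c53262_g2 was at 13.0% ± 0.15 of c53262_g4 in BDK1, then 16.8% ± 0.74, 15.6% ± 1.11 and 18.1% ± 1.19 in BDK2, BDK3 and DK3, with every BDK1 library below every later one. Gene c54652_g3 went from 12.6% ± 0.28 of c54652_g2 in BDK1 to 15.0% ± 0.43, 17.8% ± 0.38 and 16.1% ± 0.99, and its own level stayed between 142 and 171 FPKM in all libraries except DK3 replicate 3, at 139. Picked after their values were seen, c53764_g2 was highest in BDK3, at 46.0% ± 1.80 of c53764_g1 against 29.6% ± 3.16 in BDK2, where the member peaked. Gene c53065_g11 went down from 46.7% ± 2.02 of c53065_g7 in BDK1 to 43.0% ± 2.12, 35.0% ± 2.40 and 31.7% ± 0.78. Whether shared reads set these ratios was not tested.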

How the data were processed

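Fruits were frozen, RNA was taken up in Trizol and Illumina libraries were made, per the labels' protocols. Each file the authors deposited holds the FPKM of every gene in 1 library, per the file headers, with up to 2 decimals in the values. No assembler, aligner or quantifier is given in the sources used here. FPKM depends on library composition, so a few very abundant transcripts lower the other values of a library. Groups and replicate numbers come from the sample titles, days from the series' design text.

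Levels, shares and the rule used FPKM as deposited. Tests used log2(FPKM / factor + 1) in limma 3.58.1 (R 4.3.3; variances following the mean level), all 12 libraries and 4 groups in 1 model, over genes of at least 1 FPKM in at least 3 libraries. Trimmed-mean factors (trimming 30% of the log ratios and 5% of the levels from either end) ran from 0.898 to 1.11. The model fit was tested on simulated data with independent normal scatter and no scaling factors, so the scaling step was not tested. No library was a copy of another, since any pair had the same FPKM in at most 11.9% of the genes tested. Alternatives were other scalings, pseudocounts of 0.1 and 5, filters, the replicate number as a block, the library split as a term, and each library left out.

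Named genes follow a fixed rule: the 6 highest levels, the 4 smallest and 3 largest ratios, the 3 lowest minima, the 3 genes nearest outside each limit, the 2 widest differences without overlap in each direction and comparison, the extremes of the library split, the 3 highest and 3 lowest CVs, and up to 4 sisters above 100 FPKM, by the level of the member. Members named as examples of a course were chosen after their values were seen. The members, lists and rules were chosen with earlier results of these data known.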

Additional observations from a re-analysis of the deposited data

How the results depend on the processing

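The number of members was 122 with a minimum of 250 FPKM and 14 with 1000, 13 with a ratio limit of 1.5 and 50 with 3, and 29 to 36 with 1 library left out, where 24 of the 33 stayed whichever library it was. Chosen after seeing the data, upper-quartile and median-of-ratios factors each gave 20 and the rule without BDK1 gave 84. With group medians it was 28. Members called in BDK3 against BDK2 numbered 5 with no filter on low values (6455 of 101724 genes). With 1 library left out they numbered 6 to 12 (7087 to 8749 of all genes). In DK3 against BDK3, upper-quartile factors and a filter of 5 FPKM each called 1 (1556 of 23074 and 1716 of 14429 genes). Leaving out 1 library called 0 to 1 (642 to 2147 of all genes). With 1 library left out, BDK2 against BDK1 called 17 to 21 members (9560 to 11994 of all genes). BDK3 against BDK1 called 16 to 21 (11094 to 12852) and the library split 0 (92 to 225).

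No clear pairing of libraries by replicate number was seen. Deviations of same-numbered libraries correlated at -0.14 to 0.17 across genes, above 0.1 in 1 of 18 pairs. Across groups those of other numbers ran from -0.21 to 0.25, above 0.1 in 2 of 36. Of the 12 libraries 6 were closest to one of their own number. With deviations from means of 3 libraries and no test, this check cannot exclude a pairing. With the replicate block 22, 9, 21 and 0 members were called in the 4 comparisons and 0 for the split. Over the 23074 genes the calls were 11684, 8284, 12831 and 1126, and 64 for the split. The sign of the split difference turned for c54944_g1 without BDK3 replicate 2 (-0.013, in a range from -0.013 to 0.52 with 1 library left out) and for c50861_g1 with the replicate block (-0.11) and without BDK3 replicate 1 (-0.025, in a range from -0.025 to 0.33). The cause of these shifts was not tested. With no counts, counting error cannot be given.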
